A study of Homo sapiens with 4 samples.

Results

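The genes described here are 39 targets of the tumor suppressor p53 that act outside the core of apoptosis and outside p21. They were chosen by name, with earlier results of these data known, and followed across the RNA sequencing of HCT116 cells treated with HJ-4. They are 39 of the 20263 gene IDs in the count table, all 39 were found in it, and 37 had enough counts to be tested. HCT116 is an established human colorectal carcinoma line that keeps wild-type p53 and is labelled WT for genotype. One condition received HJ-4, a derivative of the black pepper alkaloid piperine, at 32 µM for 24 h, and the other received 0.1% DMSO, the vehicle, for 24 h. Each condition had 2 libraries. The study's methods call the replicates biological, but describe more of them per condition than the libraries analysed here, and the labels do not state separate cultures. The p-values cover only the variation among these libraries. The design holds a single line, dose and time.

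The p53 protein is a transcription factor that is kept scarce by constant degradation and accumulates when DNA is damaged or the cell is otherwise stressed. It binds a response element made of a pair of short, nearly palindromic motifs, and it switches on genes that halt division, repair DNA, adjust metabolism or remove the cell. The genes outside apoptosis and p21 carry out much of this work: lesion sensors, polymerases and deoxynucleotide enzymes in repair, antiproliferative proteins and stress kinases in arrest, redox enzymes in metabolism, and a varied set of signalling and membrane proteins. Several of them also answer to other stress pathways.

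The response element was searched for in the genome around these genes, and the matches are printed to show which members hold one. Since the members were named as p53 targets, a match is not independent of that choice. A match was a pair of adjoining 10-base motifs of the p53 consensus, 20 bases in all, with both 4-base cores intact and up to 2 mismatches elsewhere. The consensus reads nearly the same on both strands, so a scan of the gene's strand covers both. Start sites came from RefSeq (GRCh38.p14) for 31 of the 39 members and were not matched for RRM2B, ASCC3, GADD45A, CMBL, FBXO22, TRIM22, TP53INP1 and PHLDA3. Within 2500 bases on either side of the start site, 7 of the 31 members held a match, among them SPATA18 and EDA2R, which had too few counts to be tested. Of the 29 tested members with a start site, 5 (17.2%) held one, against 2.19% of 11120 tested genes. No mismatch was allowed in a stricter scan, which left PLK2 and ZMAT3, 2 of 29 (6.90%), against 0.072% of tested genes. A looser scan with up to 3 mismatches found 10 of 29 (34.5%), against 12.5%. The number of mismatches was chosen after the matches were seen. The 7 matches are given here 5′ to 3′ on the strand of the gene, with the 2 cores in capitals.
AEN: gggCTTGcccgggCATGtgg
BTG2: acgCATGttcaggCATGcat
PLK2: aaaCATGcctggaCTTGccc
ZMAT3: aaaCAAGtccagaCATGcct
CDIP1: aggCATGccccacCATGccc
SPATA18: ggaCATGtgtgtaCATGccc
EDA2R: gggCAAGtcagggCTTGtgt
On GRCh38 the AEN match lies at chr15:88621306-88621325 on the plus strand, 34 bases upstream of the start site. The PLK2 match lies at chr5:58462274-58462293 on the minus strand, 2207 bases upstream, and that of BTG2 at chr1:203303642-203303661 on the plus strand, 1877 bases upstream. Downstream of the start site lie the matches of ZMAT3 (chr3:179070188-179070207, minus strand, 1602 bases), CDIP1 (chr16:4536800-4536819, minus strand, 1954 bases), SPATA18 (chr4:52051957-52051976, plus strand, 653 bases) and EDA2R (chrX:66638563-66638582, minus strand, 687 bases). The AEN, PLK2, BTG2 and ZMAT3 matches belong to genes with positive fold changes in HJ-4-treated cells. So, however, were the fold changes of 27 of the 37 tested members in all. The CDIP1 match belongs to a gene near 0, and those of SPATA18 and EDA2R to genes with almost no counts. A match describes the letters of the window and does not show that p53 was bound there.

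Across the 37 tested p53 targets, levels leaned upward with HJ-4, by small amounts. Since the list was chosen with earlier results of these data known, the lean is a description and not a test. The fold change was positive for 27 and negative for 10, with a median log2 fold change of 0.18, whereas the 14044 genes tested in all had a median of 0.004 and 50.7% positive. By edgeR's quasi-likelihood test with Benjamini-Hochberg adjustment over all genes, 0 of the 37 passed an adjusted p of 0.05, and the smallest value was 0.154, for AEN. Of all genes tested, 7 (0.0498%) passed, 6 of them higher (0.0427%) and 1 lower (0.00712%). Before adjustment, p was under 0.05 with a positive fold change for 14 members (37.8%) and with a negative one for 1 (2.7%), against 7.93% of all genes in each direction. With total counts in place of TMM scaling, 12 members were higher and 1 lower, against 6.57% and 9.88% of all genes. DESeq2 called 4 members higher and 0 lower, against 2.46% and 1.84% of genes, and limma-voom called 0 (9 genes, 0.0641%, in all). The unadjusted count on the higher side was 5 when HJ-4 replicate 1 was left out (3.94% of all genes) and also 5 when HJ-4 replicate 2 was (3.79%). The members' median log2 fold change was 0.193 and 0.169 in those fits, and 0.242 and 0.182 without DMSO replicate 1 and 2. Leaving out an HJ-4 library, whichever of them, left 0 calls in the whole table, and leaving out DMSO replicate 1 or 2 gave 88 or 34.

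Fold changes are HJ-4 over DMSO on the log2 scale, levels are counts per 1000000 counts of the TMM-scaled library (CPM), and intervals are 95% intervals of the fit, not corrected for the number of genes. In cell populations of this kind, a change in the share of cells that express a gene and a change of RNA per cell cannot be told apart. Each HJ-4 library exceeded each DMSO library for 24 of the 37 genes (64.9%), against 25.2% of all genes, and below them for 5 (13.5%), against 25.6%. The whole interval lay within 1 of 0 on the log2 scale for 35 of the 37 genes and within 0.5 of 0 for 17. The interval included 0 for 22 genes.

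**Figure D1:**
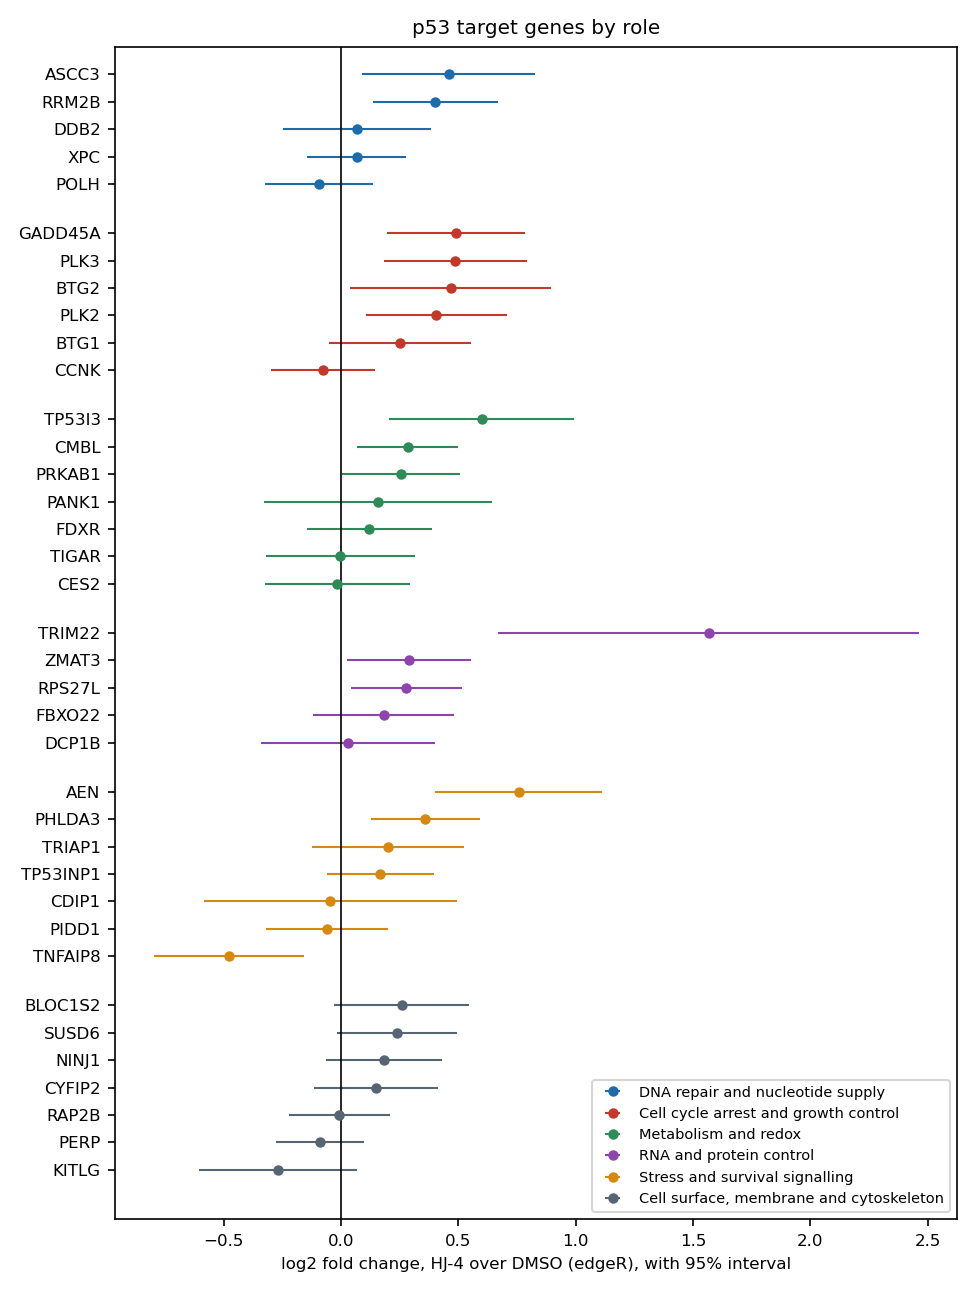
Log2 fold change (HJ-4 over DMSO, horizontal axis) of the 37 tested p53 targets, grouped by role, with the 95% interval of edgeR's fit as horizontal bars. TRIM22, AEN and TP53I3 lie farthest to the right at 1.57, 0.76 and 0.60, TNFAIP8 lies farthest to the left at -0.48, and 22 of the 37 bars cross 0.

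Genes of DNA repair and nucleotide supply were split. RRM2B, the stress-inducible small subunit of ribonucleotide reductase, and ASCC3, a helicase used in the repair of alkylated DNA, lay higher with HJ-4, while the damage sensors XPC and DDB2 and the translesion polymerase gene POLH stayed close to the DMSO level. None of the 5 passed the adjusted threshold in edgeR. Before adjustment, 2 had a p under 0.05, both higher, against 7.93% of all genes. RRM2B alone was called by DESeq2 (adjusted p = 0.04999), which called 2.46% of genes higher. The median log2 fold change of the 5 was 0.07.
RRM2B stood at 146 and 132 CPM with HJ-4, against 98.7 and 111 CPM with DMSO. The conditions did not overlap. Its log2 fold change was 0.40 (standard error 0.10, edgeR adjusted p = 0.219).
ASCC3 reached 58.6 and 53.7 CPM with HJ-4, against 36.0 and 45.7 CPM with DMSO. Here too the conditions were separate, but the DMSO libraries lay apart by 0.341 on the log2 scale, most of the size of the log2 fold change of 0.46 (standard error 0.14, edgeR adjusted p = 0.256).
For DDB2, which recognizes ultraviolet lesions, the levels were 53.1 and 51.4 CPM with HJ-4, against 54.7 and 45.0 CPM with DMSO. Both HJ-4 libraries fell inside the range of the DMSO libraries, and the interval of the log2 fold change ran from -0.25 to 0.38. XPC, the lesion sensor of global genome nucleotide excision repair, had an interval from -0.14 to 0.28, and POLH from -0.32 to 0.14. A doubling of any of these 3 genes therefore lay outside its interval. XPC shares 8.91% of its exonic bases with a gene on the opposite strand, and POLH 3.12% with GTPBP2.

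Among the arrest and growth control genes, GADD45A, PLK3, BTG2 and PLK2 had log2 fold changes between 0.41 and 0.49, each with no overlap between the conditions, and the cyclin K gene CCNK did not share in this. Of the 6 genes, 4 had a p under 0.05 before adjustment, all higher, against 7.93% of all genes. After adjustment edgeR called 0. DESeq2 called GADD45A and PLK3 higher (adjusted p = 0.0139 and 0.023), against 2.46% of genes. The median log2 fold change of the 6 was 0.44, compared with 0.004 for all genes tested.
GADD45A, a stress-induced protein that binds the replication clamp and the mitotic kinase complex, stood at 188 and 189 CPM with HJ-4, against 147 and 122 CPM with DMSO. The HJ-4 libraries were nearly identical and the DMSO libraries were not (0.010 against 0.272 on the log2 scale). GADD45A (chromosome 1, 67685201 to 67688334, plus strand of GRCh38 in GENCODE v44) gave a log2 fold change of 0.49, with a standard error of 0.11 and an adjusted p of 0.195 in edgeR.
PLK3, a polo-like kinase of the stress response, was measured at 122 and 127 CPM with HJ-4, against 97.1 and 80.0 CPM with DMSO. Its log2 fold change was 0.49 (standard error 0.12, edgeR adjusted p = 0.205), and its related kinase gene PLK2 had 75.2 and 65.7 CPM with HJ-4, against 49.7 and 56.6 CPM with DMSO. The PLK2 libraries lay 0.194 apart within HJ-4 and 0.183 within DMSO on the log2 scale, and the conditions did not overlap.
BTG2, an antiproliferative protein that promotes the removal of mRNA tails, had 67.7 and 74.7 CPM with HJ-4, against 59.3 and 43.7 CPM with DMSO. Its DMSO libraries were the farthest apart among all tested members (0.437 on the log2 scale), and its log2 fold change was 0.71 without DMSO replicate 1 and 0.26 without DMSO replicate 2. The closely related BTG1 had a log2 fold change of 0.25 with an interval from -0.05 to 0.55. CCNK, the gene of a cyclin that partners kinases of transcription elongation, had -0.08, but 59.5% of its exonic bases are shared with CCDC85C on the opposite strand, and the sources used here do not say whether the counts used strand.

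**Figure D2:**
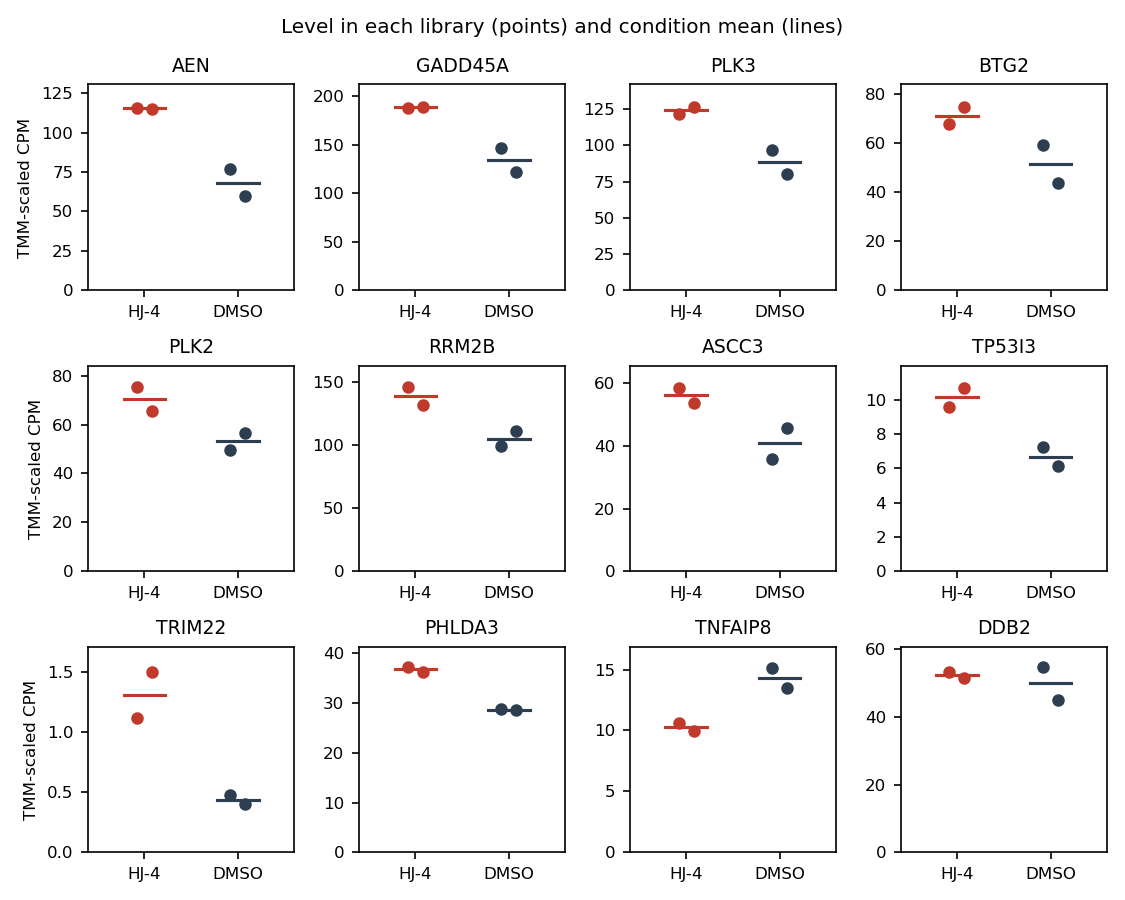
TMM-scaled CPM (vertical axis, from 0) of 12 p53 targets in each library, with HJ-4 on the left and DMSO on the right of each panel. Points are libraries and lines are means of 2 libraries. AEN lies at 116 and 115 CPM with HJ-4 against 76.8 and 59.7 CPM with DMSO, TNFAIP8 lies lower with HJ-4, and the DDB2 points of both conditions overlap.

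Among the tested genes of metabolism and redox, TP53I3, a quinone oxidoreductase first found as a p53-induced gene, had the largest fold change. It had 9.60 and 10.7 CPM with HJ-4, against 7.26 and 6.11 CPM with DMSO, or 327 and 356 counts against 228 and 184 counts. The conditions were separate, and the log2 fold change was 0.60 (standard error 0.15, edgeR adjusted p = 0.218).
CMBL, a cysteine hydrolase, had 115 and 113 CPM with HJ-4, against 97.1 and 90.3 CPM with DMSO (log2 fold change 0.28, standard error 0.08, edgeR adjusted p = 0.243). PRKAB1, a regulatory subunit of the energy sensor AMPK, had 31.8 and 32.1 CPM with HJ-4, against 27.9 and 25.6 CPM with DMSO. These 3, all higher, were the members of the group with a p under 0.05 before adjustment, against 7.93% of all genes. edgeR and DESeq2 called 0 of the 7 tested genes after adjustment.
The remaining enzymes gave little movement. TIGAR, a phosphatase that restrains glycolysis, had 11.5 and 10.4 CPM with HJ-4, against 10.96 and 10.999 CPM with DMSO, and its interval ran from -0.32 to 0.31. FDXR, the mitochondrial ferredoxin reductase, had 93.3 and 94.4 CPM with HJ-4, against 93.0 and 79.7 CPM with DMSO, so that its separation rested on less than 1 CPM. PANK1, the first enzyme of coenzyme A synthesis, and the carboxylesterase gene CES2 had overlapping conditions and log2 fold changes of 0.16 and -0.01. PANK1 was at 9.04 and 8.72 CPM with HJ-4, against 6.72 and 9.20 CPM with DMSO, and CES2 at 21.8 and 25.5 CPM with HJ-4, against 24.7 and 23.1 CPM with DMSO. SPATA18, which acts in mitochondrial quality control, had 2 and 4 counts with HJ-4, against 3 and 0 counts with DMSO, too few for a test.

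TRIM22 had the largest fold change of all members and the fewest counts of those tested. This interferon-inducible ubiquitin ligase gene had 38 and 50 counts with HJ-4, against 15 and 12 counts with DMSO, or 1.12 and 1.499 CPM against 0.478 and 0.399 CPM. All 4 libraries lay above 0.308 CPM, the minimum of the filter on low counts, so that it would have been tested without a difference. The log2 fold change was 1.57 with an interval from 0.67 to 2.46 (edgeR adjusted p = 0.187), and DESeq2 gave an adjusted p of 0.181. At this depth the size of the TRIM22 difference is loosely bounded, and 5.11% of its exonic bases are shared with OR56B1 on the same strand.
The other genes of RNA and protein control had positive but smaller values. RPS27L, a ribosomal protein paralog whose reads may in part be shared with RPS27, had 72.8 and 71.2 CPM with HJ-4, against 62.5 and 56.2 CPM with DMSO (log2 fold change 0.28, standard error 0.09, edgeR adjusted p = 0.271). ZMAT3, an RNA-binding regulator of splicing and stability, had 73.7 and 65.1 CPM with HJ-4, against 58.9 and 54.6 CPM with DMSO. The F-box gene FBXO22 and the decapping gene DCP1B had log2 fold changes of 0.18 and 0.03. DCP1B was at 16.2 and 18.3 CPM with HJ-4, against 15.3 and 18.6 CPM with DMSO, and its conditions overlapped. FBXO22 shares 16.2% of its exonic bases with NRG4 on the opposite strand. Of the 5 genes, 3 had a p under 0.05 before adjustment, all higher, against 7.93% of all genes. After adjustment, 0 passed in edgeR or in DESeq2.

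In stress and survival signalling lay the member with the smallest p in edgeR, and the member with the largest negative fold change. AEN, an exonuclease induced by p53 in response to DNA damage, stood at 116 and 115 CPM with HJ-4, against 76.8 and 59.7 CPM with DMSO. The HJ-4 libraries were within 0.011 of each other on the log2 scale and well clear of both DMSO libraries, which were 0.360 apart. The AEN log2 fold change was 0.76 (standard error 0.14, edgeR adjusted p = 0.154), that is 1.69-fold, and means of 115 ± 0.620 CPM with HJ-4 and 68.2 ± 12.1 CPM with DMSO (SD, n = 2 each). DESeq2 called it (adjusted p = 3.55e-04). Over the fits that leave out a library, its log2 fold change ran from 0.59 to 0.95, the highest without DMSO replicate 1. AEN lies on chromosome 15 from 88621337 to 88632281 on the plus strand.
PHLDA3, a pleckstrin-homology protein that competes with the kinase AKT for membrane lipids, had 37.1 and 36.3 CPM with HJ-4, against 28.7 and 28.5 CPM with DMSO. Libraries of a condition agreed within 0.033 on the log2 scale, and leaving out any library kept the log2 fold change between 0.35 and 0.37. Its adjusted p in edgeR was 0.213 at a log2 fold change of 0.36 (standard error 0.09).
TNFAIP8, which encodes a protein that opposes cell death, went the other way, with 10.6 and 9.95 CPM in HJ-4 libraries, against 15.1 and 13.5 CPM in DMSO libraries. It was the member on the lower side with a p under 0.05 before adjustment, with a log2 fold change of -0.48 (standard error 0.12, edgeR adjusted p = 0.221). Over the fits that leave out a library, the TNFAIP8 log2 fold change ran from -0.56 to -0.40. TP53INP1, a p53-induced stress protein of the nucleus and of autophagy, and TRIAP1, which takes part in mitochondrial lipid transfer, had log2 fold changes of 0.17 and 0.20 with separate conditions. PIDD1, the scaffold of a caspase-activating complex, had 28.7 and 30.8 CPM with HJ-4, against 32.2 and 29.9 CPM with DMSO, and CDIP1, a membrane protein that promotes cell death, had 6.61 and 8.42 CPM with HJ-4, against 8.82 and 6.68 CPM with DMSO. For both of these genes the conditions overlapped.

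Genes of the cell surface, membrane and cytoskeleton gave no member with a p under 0.05 before adjustment in either direction. The share of all genes was 7.93% in each. SUSD6, a sushi-domain membrane protein, and BLOC1S2, a subunit of complexes that position lysosomes and related organelles, came nearest. SUSD6 had 32.6 and 34.3 CPM with HJ-4, against 29.4 and 27.2 CPM with DMSO, and BLOC1S2 had 48.6 and 43.1 CPM with HJ-4, against 40.1 and 36.6 CPM with DMSO (log2 fold changes 0.24 and 0.26, edgeR adjusted p = 0.332 and 0.344). NINJ1, which ruptures the plasma membrane in dying cells, and CYFIP2, a subunit of the actin-regulating WAVE complex, had 0.18 and 0.15.
PERP and KITLG were lower in each HJ-4 library than in each DMSO library. PERP, a tetraspan protein of desmosomes, had the highest level of the members per kilobase of exon in DMSO libraries, at 116 CPM per kilobase, and its 465 and 450 CPM with HJ-4, against 496 and 478 CPM with DMSO, gave an interval from -0.28 to 0.10. KITLG, the ligand of the receptor KIT, had 118 and 113 CPM with HJ-4, against 123 and 155 CPM with DMSO. The small GTPase gene RAP2B showed 138 and 141 CPM with HJ-4, against 146 and 135 CPM with DMSO. EDA2R, a receptor of the tumor necrosis factor family, had 2 and 0 counts with HJ-4 and 0 counts in both DMSO libraries and was not tested.

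**Figure D3:**
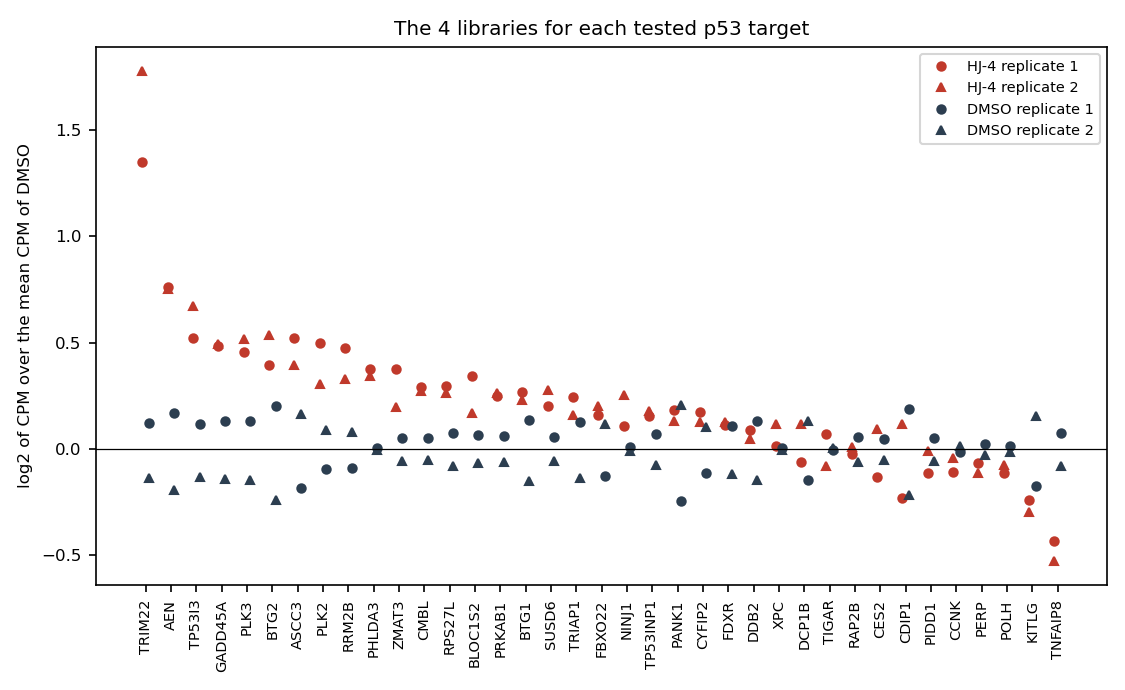
Log2 of each library's CPM over the mean CPM of DMSO (vertical axis) for the 37 tested p53 targets, ordered by fold change. Circles are replicate 1 and triangles replicate 2 of HJ-4 (red) and DMSO (dark blue). Each HJ-4 library exceeds each DMSO library for 24 genes (64.9%), against 25.2% of all genes. The DMSO libraries are farther apart than the HJ-4 libraries for 26, a count with no share of all genes beside it.

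At the median, these genes differed more between the DMSO libraries than between the HJ-4 libraries, as did all genes tested. The median difference between libraries of a condition, over the tested members, was 0.0686 on the log2 scale with HJ-4 and 0.169 with DMSO, compared with 0.114 and 0.163 over all genes tested. DMSO replicate 1 lay above DMSO replicate 2 for 27 of the 37 members, while HJ-4 replicate 1 lay above HJ-4 replicate 2 for 18. Relative to each gene's mean over the 4 libraries, the members' median log2 deviation was 0.101 and 0.105 in the HJ-4 libraries and -0.063 and -0.157 in the DMSO libraries. The part of the DMSO spread in the fold changes was not tested beyond leaving out each library. With each library left out in turn, 24 members stayed positive, 5 stayed negative and 8 changed sign, and the members' median ran from 0.169 without HJ-4 replicate 2 to 0.242 without DMSO replicate 1.

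**Figure D4:**
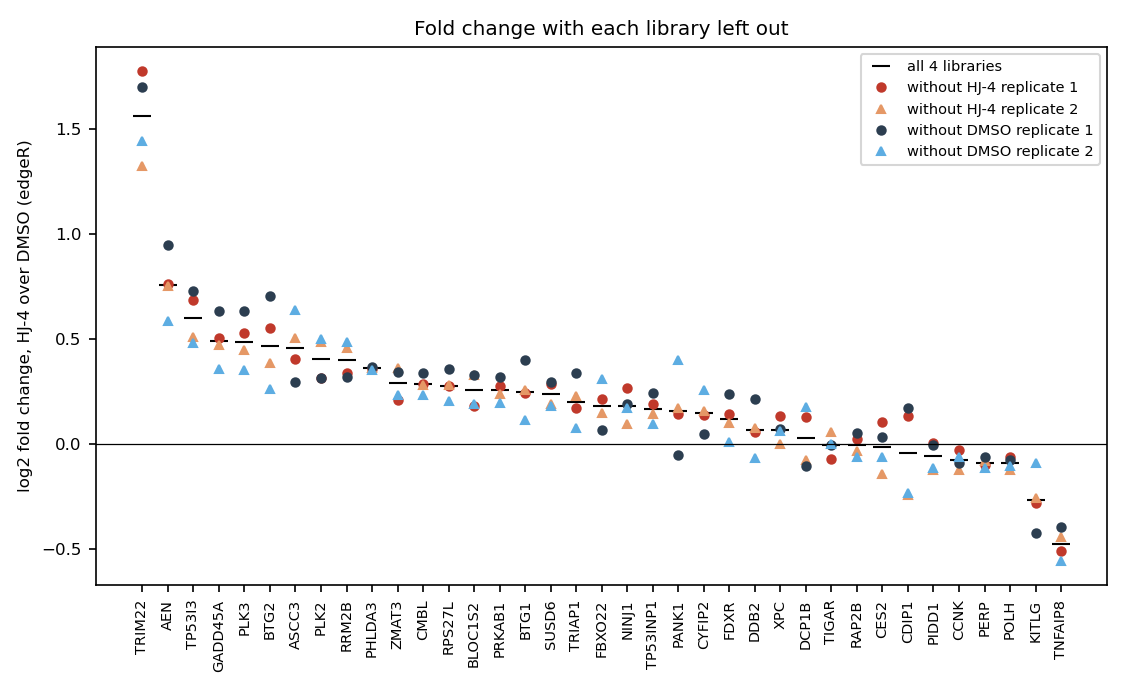
Log2 fold change (HJ-4 over DMSO, vertical axis) of the 37 tested p53 targets with all 4 libraries (black dashes) and with each library left out (colored points). AEN ranges from 0.59 to 0.95 and PHLDA3 from 0.35 to 0.37, and 8 genes lie on both sides of the zero line.

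The members were set beside the rest of the p53 pathway, 35 genes of which 33 were tested. BBC3 and GDF15 passed the adjusted threshold in edgeR, both higher, and 0 were lower, against 0.0427% and 0.00712% of all genes. Before adjustment, p was under 0.05 for 14 on the higher side and for 1, the matrix protein gene THBS1, on the lower side. The share of all genes was 7.93% in each direction. The median log2 fold change was 0.35, but it pooled unlike groups. For p53 and its regulators (17 tested, 3 higher at that threshold) the median was 0.037. For the other p53 targets (16 tested, 11 higher) it was 0.526. DESeq2 called 9 higher and 1 lower, against 2.46% and 1.84% of genes. The 2 calls of edgeR became 0 when either HJ-4 library was left out, 1 with total counts and 5 when DMSO replicate 1 was left out.
RCHY1, a ubiquitin ligase for p53, had 19.7 and 18.3 CPM with HJ-4, against 15.4 and 13.1 CPM with DMSO (log2 fold change 0.42, edgeR adjusted p = 0.254).
MDM2, the main ubiquitin ligase for p53 and itself a target, had 43.7 and 171 CPM with HJ-4, against 145 and 54.4 CPM with DMSO, so that the libraries disagreed within both conditions (1.96 and 1.40 on the log2 scale). No tested member showed a disagreement of that size, the largest being 0.328 within HJ-4 and 0.437 within DMSO. The damage kinase gene ATM had 88.3 and 77.5 CPM with HJ-4, against 53.6 and 66.9 CPM with DMSO, and CHEK1, the gene of a checkpoint kinase, had 22.02 and 26.4 CPM with HJ-4, against 18.7 and 19.4 CPM with DMSO. RCHY1, ATM and CHEK1 were the 3 regulators with a p under 0.05 before adjustment, and they do not stand for the group. Fold changes were positive for 10 of the 17 tested regulators and negative for 7. The conditions were separate for 5 on the higher side and for 4 on the lower side, against 25.2% and 25.6% of all genes. Those 4 were COP1, CHEK2, EP300 and PML (log2 fold changes -0.14, -0.23, -0.17 and -0.09), with no p under 0.05 before adjustment.

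The libraries held 33762230 to 34359889 counts with HJ-4 and 29769568 to 31120459 counts with DMSO, and the lowest counts of a tested member in any library were 12 for TRIM22 and 184 for TP53I3. Of 8 markers of the colon epithelial line, 6 had a mean of at least 1 CPM, with CDX1 at 0 and VIL1 near 0. Markers of leukocytes summed to 0.53 to 0.60 CPM with HJ-4 and 0.37 to 0.54 CPM with DMSO, those of endothelium to 2.01 to 2.11 and 1.43 to 1.56 CPM, and those of fibroblasts to 59.0 to 61.3 and 59.8 to 63.1 CPM, the last almost all from COL1A1, with COL1A2, DCN and LUM at 0. Mitochondrially encoded genes took 6.01% to 6.41% of counts with HJ-4 and 6.59% to 7.73% with DMSO, and the part of this difference in the results was not tested.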

How the data were processed

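RNA of HCT116 cells was sequenced in 4 libraries, 2 per condition. The table the authors deposited holds counts, not normalized, for each Ensembl gene ID. The paper's methods name STAR, GRCh38 and featureCounts, while HISAT2, bedtools and RSEM appear in the notes of the submitters. The sources used here do not settle which tool, annotation and strand setting made the counts. Counts of overlapping genes depend on that setting. Columns were matched to samples by library name, and symbols and coordinates came from GENCODE v44 on GRCh38 (20148 of 20263 IDs matched).

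In edgeR 4.0.16 (R 4.3.3), low counts were removed by filterByExpr, libraries were TMM-scaled, and condition alone was fitted with glmQLFit and glmQLFTest. P-values of 14044 genes were adjusted by Benjamini-Hochberg. The paper names limma, and limma-voom (limma 3.58.1) and DESeq2 1.42.0 were alternatives, beside other scaling, filters, a replicate block and leaving out each library. Standard errors were derived from the F statistic. The tests were first tried on simulated counts, where each made false calls beside true ones, DESeq2 the most of both. No library was a copy of another: chi-square over its degrees of freedom was 21.9 between the HJ-4 libraries and 36.5 between the DMSO libraries.

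The members, roles and lists were chosen with earlier results of these data known. Values per library were to be given for members with a p under 0.05 before adjustment and an absolute log2 fold change of at least 0.5, for the 2 of each role with the smallest p, and for those that differed by over 1 within a condition or changed direction under an alternative. Other members named, and the genes in the plots by library, were chosen after their values were seen. Response elements were searched in GRCh38 around RefSeq start sites. Values of some other pathway genes are not reported here.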

Additional observations from a re-analysis of the deposited data

How the results depend on the processing

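Direction held for all 37 tested members under DESeq2 size factors, total counts, no filter, DESeq2, limma-voom and the replicate block, and for the 36 that a minimum mean of 5 CPM left, without TRIM22. The 7 genes called in the whole table became 12 with no filter, 31 with the replicate block and 570 with DESeq2. DESeq2 called 4 members and 10 of the other pathway genes, of which edgeR called 0 and 2, and total counts left 1 of those 2. With the replicate block, 0 members were called, and p before adjustment was under 0.05 for 10 on the higher and 1 on the lower side, against 6.64% and 5.89% of all genes. The labels do not say whether same-numbered libraries were handled together. Their deviations correlated at -0.0429 across genes, which cannot settle it, since each condition gives a single difference. Over the fits that leave out each library, the calls ranged from 0 to 88 for all genes, 0 to 1 for the members and 0 to 5 for the other pathway genes, the members with a p under 0.05 before adjustment from 5 to 18 higher and from 0 to 2 lower (3.79% to 11.9% and 3.26% to 8.90% of all genes), and their median log2 fold change from 0.169 to 0.242. In the same fits the log2 fold change ran from -0.066 to 0.21 for DDB2, -0.070 to 0.059 for TIGAR, -0.051 to 0.40 for PANK1, -0.14 to 0.11 for CES2, -0.10 to 0.18 for DCP1B, -0.12 to 0.0035 for PIDD1, -0.24 to 0.17 for CDIP1 and -0.064 to 0.053 for RAP2B, with no call in any. The cause of these changes was not tested. With 2 libraries per condition, a fit without a library assumes that the lone library varies like the others. Depth limits TRIM22, SPATA18 and EDA2R.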
